A study of Mus musculus with 24 samples.

Results

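The cytochrome P450 genes of families 1 to 4 were followed in the livers of mice with a ligated bile duct. Members were chosen by name alone: every gene whose probe set carried a single symbol made of Cyp, a digit from 1 to 4, a letter and a number. This gave 65 members among 18820 measured genes, each read from its brightest probe set by the mean of all 24 arrays. Only Cyp1b1 had a second probe set. By subfamily the members were 3 of family 1, 8 of Cyp2a and Cyp2b, 13 of Cyp2c, 9 of Cyp2d, 6 of Cyp2j, 8 of other family 2 branches, 6 of Cyp3a, 3 of Cyp4a and Cyp4b, 8 of Cyp4f, and Cyp4x1. They lie in few clusters, with 14 on chromosome 7, 13 on chromosome 19, 10 on chromosome 4, 9 on chromosome 15, 8 on chromosome 17, 7 on chromosome 5 and 4 elsewhere.

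Total liver RNA of male C57/BL6 mice was hybridised to 24 arrays, 3 for each of 8 groups. Control mice were JNK1f/f, with a floxed JNK1 gene, and had sham surgery, in which the abdomen was opened and closed, or ligation of the common bile duct (BDL in the plots). JNK1-/- mice lacked the kinase JNK1 in every cell. JNK1Δhepa mice were JNK1f/f mice with Cre driven by the albumin promoter, which deletes JNK1 in hepatocytes and leaves it in other liver cells; both mutants were measured after ligation alone. Livers were taken at 48 h from mice aged 8 weeks or at 28 d from mice aged 12 weeks, so time after surgery and age cannot be told apart. JNK1-/- mice came from a supplier and the floxed strain from another laboratory, so genotype and origin cannot be told apart between them. The labels tell the 3 samples of a group apart only by a replicate number, so p-values measure the spread between these samples.

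Cytochrome P450 enzymes are haem proteins of the endoplasmic reticulum that add an oxygen atom to a substrate, with electrons passed on by a reductase or cytochrome b5. Family 1 acts on planar aromatic compounds, families 2 and 3 on drugs, steroids, bile acids and polyunsaturated fatty acids, and family 4 on fatty acids and leukotrienes. In liver most are made by hepatocytes, many of them mainly around the central vein, and in mice some are expressed far more in one sex under the control of growth hormone.

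Values are log2 intensities, on which a difference of 1 is a doubling. Differences come from 1 limma model over all 24 arrays, with p-values adjusted by Benjamini and Hochberg over all 18820 genes, and called genes are those whose adjusted p was below 0.05. An intensity depends on the probes, so levels are not compared between genes. A list of 14 hepatocyte markers had a mean level between 12.33 and 12.57 on every array. Within this narrow range, ligated control arrays lay below sham arrays. At 48 h they read 12.445 to 12.481 against 12.530 to 12.553, and at 28 d 12.328 to 12.450 against 12.559 to 12.573. Mapk8, which encodes JNK1, read 5.18 to 6.17 in JNK1-/- liver and 7.37 to 7.67 in 3 of the 4 control groups. The arrays labelled control sham 48 h, however, read 6.67 to 6.93, close to the 6.76 to 6.97 of 5 JNK1Δhepa arrays, while the JNK1Δhepa 28 d array of replicate 1 read 7.67 like a control. Where the Mapk8 probes lie relative to the deleted part is not given in the sources used here. The 48 h ligation count and some 48 h values are therefore also given with the 28 d sham arrays replacing the 48 h ones. The interaction between times cannot be had without the 48 h sham arrays. Some single arrays stood apart over the members. JNK1-/- 48 h replicate 1 differed by over 1.0 from the mean of its 2 partners in 9 members, control ligation 28 d replicate 1 in 14 and replicate 3 in 9, against 0 to 6 on the other 21 arrays.

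The first question was how P450 genes responded to cholestasis in control liver. After 48 h of ligation, 13 of 65 members were called, 4 higher and 9 lower, where 9.43% of all genes were called, 5.61% higher and 3.83% lower. After 28 d, 30 of 65 were called, 7 higher and 23 lower, where 23.2% of all genes were called, 11.7% higher and 11.5% lower. With arrays centred on their medians, 1660 genes were higher and 3693 lower at 28 d in place of 2199 and 2161, and members were 7 higher and 28 lower. The median member difference was -0.14 at 48 h and -0.27 at 28 d, against -0.03 for all genes at both times. Of the members, 8 fell and 4 rose at both times, 18 were called at 28 d alone, and Cyp2c37 was called at 48 h alone. Members with a mean level over 10 numbered 24, and 13 of these fell at 28 d and 2 rose. At the dim end, 17 members had a mean under 4.5, and 2 of those fell at 28 d. Groups did not overlap for 34 members at 48 h and 38 at 28 d, and the same held for 32.9% and 33.1% of all genes.

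The 48 h count depended on which arrays were used. It was 5 without ligated replicate 2, where 5.87% of all genes were called. It was 8 without ligated replicate 3 (6.3% of all genes), sham replicate 2 (6.41%) or sham replicate 3 (6.14%). The share of all genes thus fell too, from 9.43% with all arrays. The count was 23, where 13.7% of all genes were called, when the fit held only the 6 arrays compared. Some genes called at 28 d alone in the main fit were then called at 48 h too. These were Cyp1a2, Cyp2c29, Cyp2c54, Cyp2c70, Cyp2f2 and Cyp4f14, all lower. With the 28 d sham arrays in place of the 48 h ones the 48 h count was again 13, 4 higher and 9 lower, where 11.9% of all genes were called. Of these, 11 were the same genes. The calls of Cyp2c37 (adjusted p = 0.066) and Cyp2d11 (0.0794) were lost, and Cyp2d22 (-0.50, adjusted p = 0.0232) and Cyp4f37 (-0.31, 0.0381) were called as lower instead. Among members called with neither set of sham arrays, the differences of Cyp2b9 (0.88), Cyp2s1 (0.285) and Cyp2a22 (0.08) became -0.64, -0.403 and 0.72. The 28 d count stayed between 21 and 35 in every alternative run. It was 21 in a fit of only the arrays compared (9.38% of all genes) and 35 with centred arrays (28.4%). Cyp2b23, Cyp2c37, Cyp2d34 and Cyp4a31 were also called, all lower, without ligated replicate 1. Calls that held in every alternative run were those of Cyp2d40, Cyp2d9, Cyp2u1, Cyp4f15 and Cyp4f16 at 48 h. At 28 d they were those of Cyp2d40, Cyp2d13, Cyp2d10, Cyp2u1, Cyp2c67, Cyp2c29, Cyp2c38, Cyp2c39, Cyp2e1, Cyp2f2, Cyp1b1, Cyp4f13, Cyp4f14, Cyp4f16 and Cyp4f18.

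**Figure D1:**
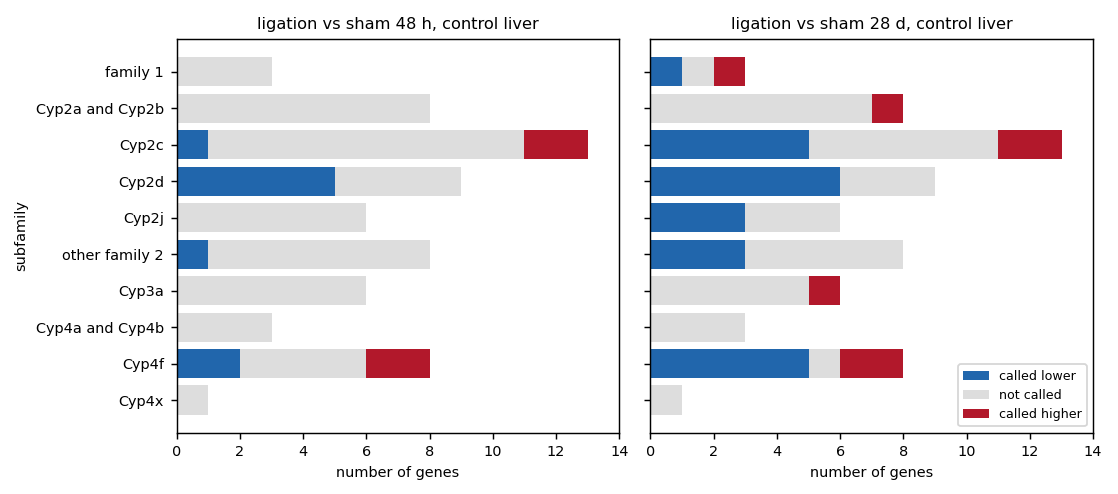
Number of P450 members per subfamily called lower, not called or called higher after ligation against sham in control liver, at 48 h (left) and 28 d (right), with the number of genes on the horizontal axis. At 28 d the Cyp2d bar holds 6 lower and 0 higher calls, the Cyp2c bar 5 lower and 2 higher, and the Cyp4f bar 5 lower and 2 higher.

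**Figure D2:**
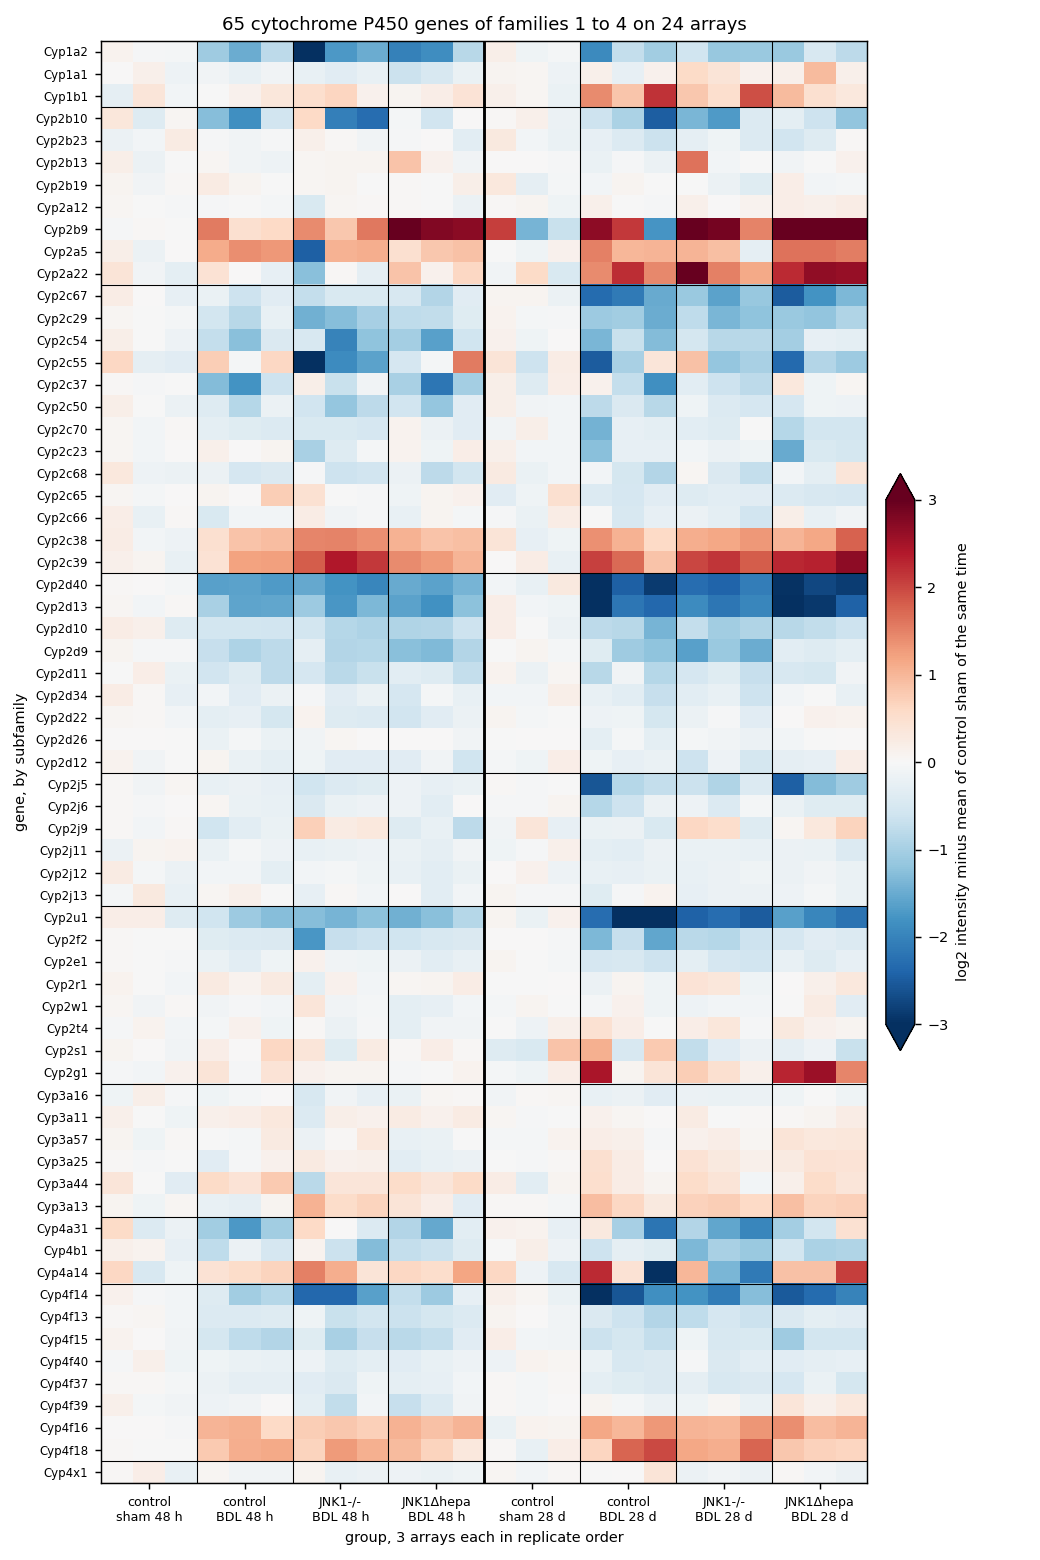
Log2 intensity of each of 65 members (rows, by subfamily) on each of 24 arrays (columns, 3 per group) minus the mean of the control sham arrays of the same time; the colour scale ends at 3 in both directions. Cyp2d40, Cyp2d13 and Cyp2u1 are blue in every ligated group, and Cyp2c38, Cyp2c39, Cyp4f16 and Cyp4f18 are red in every ligated group.

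The Cyp2d subfamily, whose human relative metabolises many common drugs, held falls and no rise. At 48 h 5 of 9 members fell and at 28 d 6 of 9, and all 9 had negative differences at both times (medians -0.56 and -0.60). Cyp2d40 read 9.53, 9.50 and 9.43 on the sham arrays at 48 h and 7.86, 7.89 and 7.79 after ligation. The 28 d arrays read 9.26, 9.11 and 9.63 in sham liver and 6.20, 6.89 and 6.46 after ligation. Every ligated array lay more than 1 log2 unit below every sham array at each time. The difference was -1.64 ± 0.15 (SE) at 48 h, a 3.12-fold fall (adjusted p = 4.53e-06), and -2.82 ± 0.15 at 28 d, a 7.04-fold fall (adjusted p = 5.82e-10), the smallest adjusted p of any member.

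Cyp2d13 read 11.17, 11.02 and 11.13 in 48 h sham liver against 10.14, 9.53 and 9.56 after ligation. The 28 d values were 11.27, 10.99 and 10.94 against 7.34, 8.90 and 8.72. Replicate 1 of the 28 d ligated group was the lowest of all, and the groups did not overlap at either time. The fall was -1.37 ± 0.32 at 48 h (adjusted p = 0.0102; 0.0503 without ligated replicate 2) and -2.75 ± 0.32 at 28 d (adjusted p = 6.09e-06).

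Cyp2d9, a steroid hydroxylase that male mouse liver expresses far more than female liver, read 11.20, 11.09 and 11.07 in 48 h sham liver and 10.44, 10.18 and 10.32 after ligation. At 28 d the values were 11.02, 11.12 and 10.98 in sham liver and 10.68, 9.97 and 9.83 after ligation. Replicate 1 stayed nearest to sham at 28 d, but no ligated array reached a sham array. The fall was -0.80 ± 0.19 at 48 h (adjusted p = 0.00926) and -0.88 ± 0.19 at 28 d (adjusted p = 0.00191; 0.0553 in a fit of only the 6 arrays compared).

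Cyp2d10 fell by 0.56 at 48 h, from 10.62, 10.53 and 10.01 to 9.83, 9.83 and 9.81 (adjusted p = 0.0384), and this call was lost in 5 of 14 alternatives, the omission of any array but sham replicate 3 (highest adjusted p 0.169). The fall at 28 d was -1.01 (adjusted p = 0.000199). Cyp2d11 read 4.95, 5.18 and 4.78 in sham liver and 4.40, 4.59 and 4.18 after 48 h of ligation, a fall of -0.58 (adjusted p = 0.0471) that was lost in 7 of 14 alternatives, the omission of any of the 6 arrays among them. Cyp2d11 also fell by 0.60 at 28 d (adjusted p = 0.0198, lost in 5 of 13 alternatives, among them the omission of replicate 1 or 3 of either group), although its ligated and sham arrays overlapped there. Of the other members of the subfamily, Cyp2d26 fell by 0.21 at 28 d (adjusted p = 0.0476, lost in 7 of 13 alternatives, among them the omission of any array but ligated replicate 2), and Cyp2d12, Cyp2d22 and Cyp2d34 were not called at either time.

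**Figure D3:**
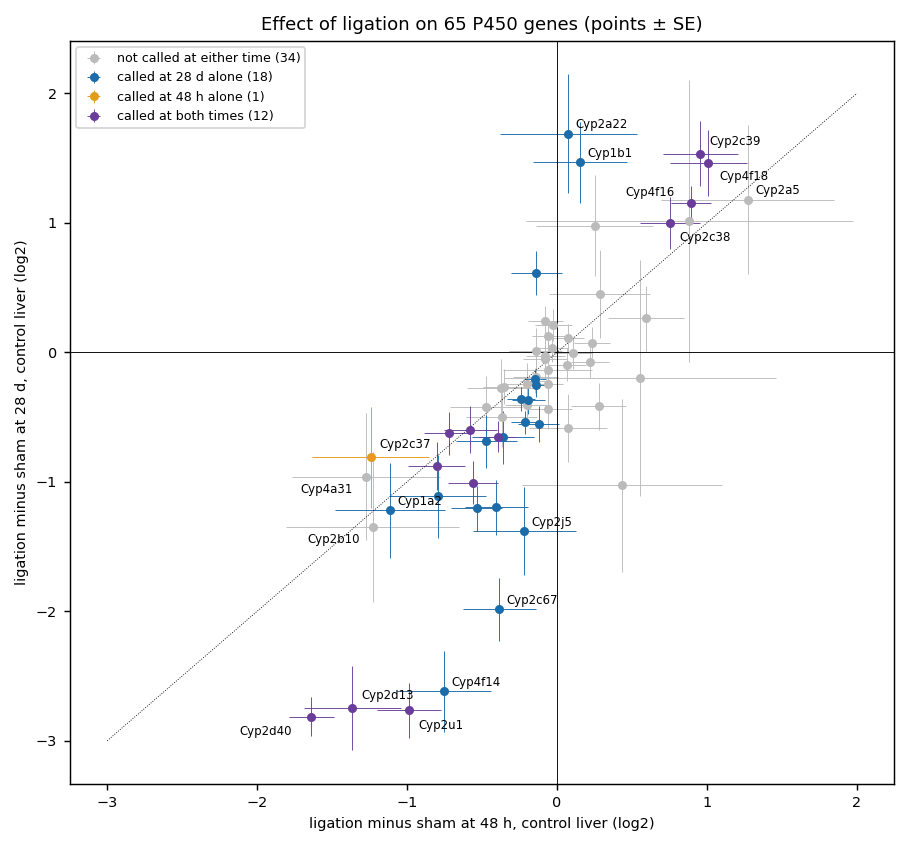
Difference between ligated and sham control liver at 28 d (vertical) against 48 h (horizontal), log2, for each of 65 members; bars are SE, the dotted line marks equal differences, and colour gives the times at which a gene was called. Cyp2d40, Cyp2d13, Cyp2u1, Cyp4f14 and Cyp2c67 lie furthest below 0 at 28 d, and Cyp2a5 lies high at both times without a call.

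The Cyp2c subfamily, most of whose members epoxidise arachidonic or linoleic acid, split in 2 directions. Of 13 members, Cyp2c38 and Cyp2c39 rose at both times, Cyp2c37 fell at 48 h, and Cyp2c67, Cyp2c29, Cyp2c54, Cyp2c50 and Cyp2c70 fell at 28 d. All 13 lie on chromosome 19. The 250 bases before the start of a pair that fell and of the pair that rose are shown because these neighbours moved in opposite directions. The sequences are RefSeq's on GRCm38.p6, from 5′ to 3′ on the gene's own strand and ending at the base before the start. Capitals mark TATAAA (the TATA box core), CAAAGTCCA (a sequence bound by HNF4A) and AGGTCA (a half-site of nuclear receptors), all found on the gene's own strand.
Cyp2c67, which fell, chr19:39649043-39649292 on the minus strand: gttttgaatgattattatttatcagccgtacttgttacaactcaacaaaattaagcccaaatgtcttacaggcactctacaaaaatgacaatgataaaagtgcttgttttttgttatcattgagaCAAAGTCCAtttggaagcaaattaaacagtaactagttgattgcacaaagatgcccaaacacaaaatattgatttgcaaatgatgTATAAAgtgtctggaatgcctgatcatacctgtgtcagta
Cyp2c29, which fell, chr19:39286835-39287084 on the plus strand: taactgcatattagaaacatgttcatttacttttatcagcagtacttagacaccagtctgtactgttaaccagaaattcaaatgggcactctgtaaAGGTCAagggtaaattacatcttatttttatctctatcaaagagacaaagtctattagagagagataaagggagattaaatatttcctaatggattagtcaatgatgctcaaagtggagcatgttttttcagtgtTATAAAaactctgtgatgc
Cyp2c38, which rose, chr19:39463076-39463325 on the minus strand: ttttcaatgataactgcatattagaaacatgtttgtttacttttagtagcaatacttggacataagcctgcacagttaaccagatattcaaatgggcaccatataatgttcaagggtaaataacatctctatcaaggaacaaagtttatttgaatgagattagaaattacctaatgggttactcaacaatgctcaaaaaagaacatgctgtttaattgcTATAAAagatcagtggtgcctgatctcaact
Cyp2c39, which rose, chr19:39347096-39347345 on the plus strand: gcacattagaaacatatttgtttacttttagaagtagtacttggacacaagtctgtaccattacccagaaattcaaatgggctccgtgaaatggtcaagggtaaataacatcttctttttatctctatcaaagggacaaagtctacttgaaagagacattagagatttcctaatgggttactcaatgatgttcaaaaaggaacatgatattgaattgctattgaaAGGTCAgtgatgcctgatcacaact
In a global alignment, 80.4% of the Cyp2c38 bases matched Cyp2c39. Of the Cyp2c29 bases, 78.0% matched Cyp2c39 and 74.8% matched Cyp2c38. Cyp2c67 was less alike, with 60.8% of its bases matching Cyp2c29, which fell, and 60.0% and 63.6% matching Cyp2c38 and Cyp2c39, which rose. TATAAA began 40 bases before the start in Cyp2c67, 19 in Cyp2c29 and 31 in Cyp2c38, and was not in the Cyp2c39 stretch. CAAAGTCCA began 125 bases before the start in Cyp2c67 alone of the 4. AGGTCA began 154 bases before the start of Cyp2c29 and 25 before that of Cyp2c39. The table gave Cyp2c39 a pair of start sites, and the first is shown.

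Cyp2c67 read 11.81, 11.59 and 11.33 in 48 h sham liver and 11.38, 10.96 and 11.24 after ligation, and these groups overlapped. The 28 d arrays read 11.64, 11.65 and 11.39 in sham liver and 9.25, 9.43 and 10.05 after ligation, with no overlap. The fall at 28 d was -1.99 ± 0.24, or 3.96-fold (adjusted p = 9.45e-06). Cyp2c29 read 12.57, 12.40 and 12.43 in 28 d sham liver and 11.38, 11.42 and 10.98 after ligation. Every ligated array was lower than every sham array, with a fall of -1.21 ± 0.17 (adjusted p = 4.38e-05). Cyp2c37 read 11.33, 11.27 and 11.28 in 48 h sham liver and 9.98, 9.50 and 10.67 after ligation. That fall of -1.24 ± 0.39 was close to the threshold (adjusted p = 0.0496) and was lost in 9 of 14 alternatives, among them the omission of any array but ligated replicate 3, with a highest adjusted p of 0.201 without ligated replicate 2.

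Cyp2c39, which hydroxylates retinoic acid, read 6.92, 6.84 and 6.55 in 48 h sham liver and 7.19, 7.97 and 8.00 after ligation. The 28 d values were 6.58, 6.81 and 6.35 in sham liver and 8.63, 8.27 and 7.44 after ligation. Ligated arrays were above all sham arrays at both times, with the smallest gap for replicate 1 at 48 h and replicate 3 at 28 d. The rise was 0.96 ± 0.25 at 48 h (adjusted p = 0.0187) and 1.53 ± 0.25 at 28 d (adjusted p = 0.000173). The 48 h call was lost without ligated replicate 2 (0.83), ligated replicate 3 (0.82) or sham replicate 3 (0.84). Cyp2c38 read 9.73, 9.43 and 9.35 in 48 h sham liver and 9.98, 10.35 and 10.44 after ligation. At 28 d the values were 9.87, 9.25 and 9.35 against 10.85, 10.52 and 10.09. Its rise of 0.75 ± 0.20 at 48 h (adjusted p = 0.0208) was lost without ligated replicate 2 (0.71) or 3 (0.66) or sham replicate 2 (0.72) or 3 (0.67), and its 28 d rise of 1.0 ± 0.20 (adjusted p = 0.0011) held throughout.

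The other calls of the subfamily at 28 d were falls of -1.11 in Cyp2c54, -0.69 in Cyp2c50 and -0.66 in Cyp2c70. Cyp2c70, the enzyme that makes the muricholic acids of mouse bile, differed by -0.28 without ligated replicate 1 (adjusted p = 0.142), and its call was also lost without sham replicate 2 (0.0985) and in a fit of only the 6 arrays compared (0.242). Cyp2c54 lost its call without ligated replicate 1 (adjusted p = 0.0579) or sham replicate 1 (0.054), and Cyp2c50 without ligated replicate 1 (0.0586), ligated replicate 3 (0.0651) or sham replicate 1 (0.0826). Cyp2c23, Cyp2c55, Cyp2c65, Cyp2c66 and Cyp2c68 were not called after ligation at either time. A probe set shared by Cyp2c67, Cyp2c68 and 2 close copies was outside the symbol rule. Its mean was 11.98 and 11.53 in sham and ligated liver at 48 h and 11.83 and 10.77 at 28 d, and near-identical copies may share signal with the single-symbol probe sets too.

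The Cyp4f subfamily, which hydroxylates leukotrienes and long-chain fatty acids, also split. At 28 d 5 of 8 members fell and 2 rose, which left Cyp4f39 uncalled, and at 48 h 2 fell and 2 rose. Cyp4f14 read 11.27, 11.10 and 11.06 in 48 h sham liver and 10.76, 10.10 and 10.30 after ligation, a difference of -0.76 with no overlap that was not called (adjusted p = 0.148). In a fit of only the 6 arrays compared it was called (adjusted p = 0.0175). After 28 d the sham arrays read 11.46, 11.36 and 11.12 and the ligated arrays 7.86, 8.75 and 9.47. Ligated arrays were spread more widely than sham arrays, yet each lay below all of those. The fall was -2.62 ± 0.31, or 6.14-fold (adjusted p = 7.74e-06).

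Cyp4f15 read 10.84, 10.74 and 10.63 in 48 h sham liver and 10.21, 9.97 and 9.86 after ligation, with no overlap. Its fall was -0.72 ± 0.17 at 48 h (adjusted p = 0.00797) and -0.63 at 28 d (adjusted p = 0.00895; 0.0516 without sham replicate 1). Cyp4f13 fell by 0.40 at 48 h (adjusted p = 0.0451, lost in 7 of 14 alternatives, the omission of any of the 6 arrays among them) and differed by -0.65 at 28 d (adjusted p = 0.000617), both called. Small falls of -0.37 in Cyp4f40 and -0.36 in Cyp4f37 completed the 28 d list, and Cyp4f40 was lost in 5 of 13 alternatives, among them the omission of replicate 2 or 3 of either group, and Cyp4f37 in 1 of 12, a fit of only the arrays compared (adjusted p = 0.0634).

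Cyp4f16 read 5.65, 5.65 and 5.60 in 48 h sham liver and 6.64, 6.71 and 6.22 after ligation. The 28 d values were 5.82, 6.11 and 6.10 in sham liver and 7.17, 7.00 and 7.31 after ligation. All ligated arrays were above all sham arrays, and the rise was 0.89 ± 0.13 at 48 h (adjusted p = 0.000365) and 1.15 ± 0.13 at 28 d (adjusted p = 5.69e-06). Against the 28 d sham arrays the 48 h rise was 0.51. Cyp4f18, the leukotriene hydroxylase of neutrophils, read 4.95, 4.89 and 4.90 in 48 h sham liver and 5.70, 6.01 and 6.06 after ligation. At 28 d the values were 4.90, 4.65 and 5.07 against 5.52, 6.61 and 6.86. Its rise of 1.01 ± 0.25 at 48 h (adjusted p = 0.0151) was lost without ligated replicate 2 (0.97) or 3 (0.94), and the 28 d rise was 1.46 ± 0.25 (adjusted p = 0.000332). Of 7 lymphocyte and neutrophil markers, the neutrophil genes S100a8 and S100a9 rose too, by 1.71 and 1.48 at 48 h and by 2.33 and 1.80 at 28 d, and the B cell gene Ms4a1 fell by 0.75 at 28 d. The mean of that list was 5.14 to 5.18 in sham and 5.41 to 6.07 in ligated liver at 48 h, and 4.97 to 5.11 against 5.14 to 5.62 at 28 d. No array value is a true 0, and the part of other cells in the Cyp4f18 rise was not tested; in whole liver, fewer or more cells of a type and less or more RNA per cell cannot be told apart.

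**Figure D4:**
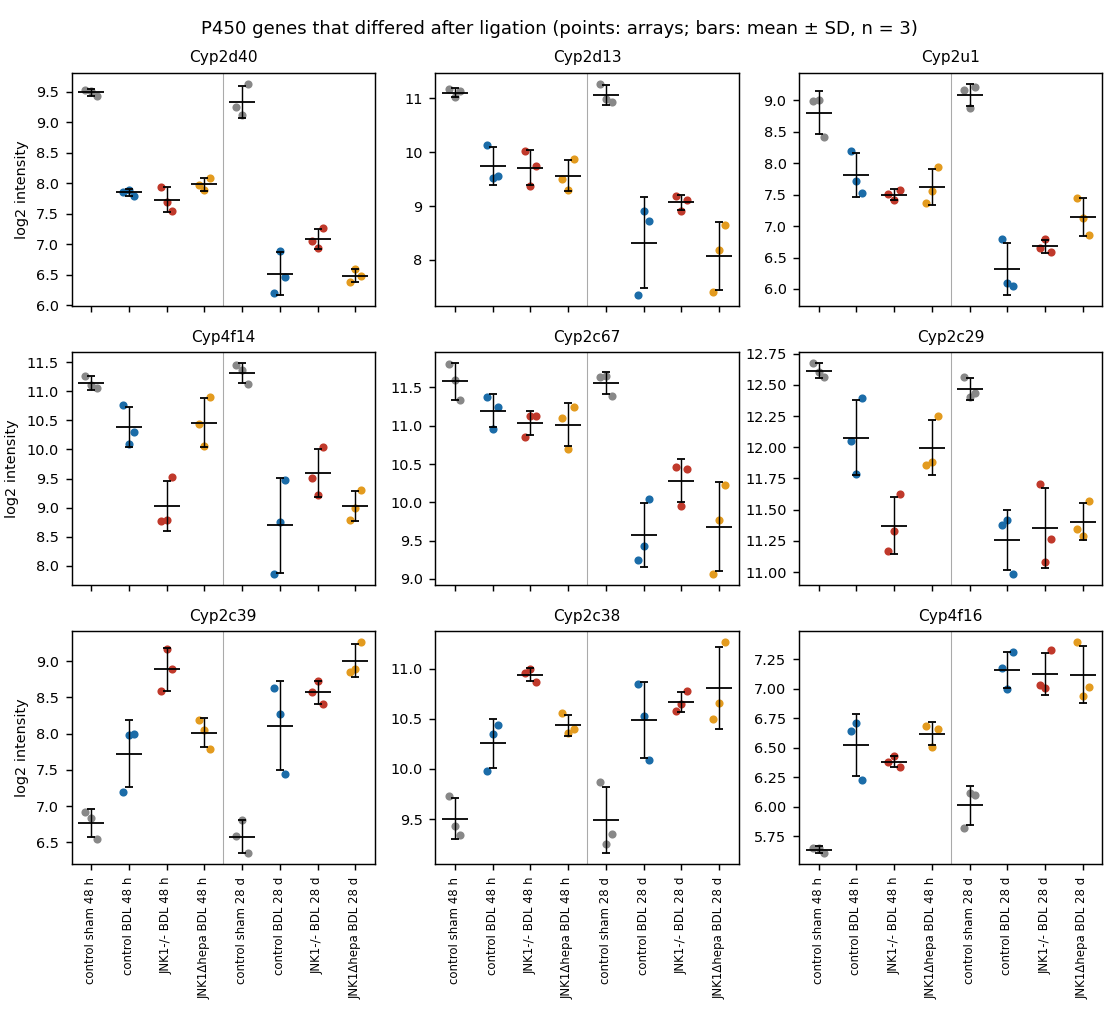
Log2 intensity on each array (points; horizontal bars with whiskers are mean ± SD, n = 3) of 9 members in the 8 groups, with the 48 h groups on the left of the grey line in each panel and the 28 d groups on the right. Cyp2u1, Cyp4f14 and Cyp2c67 are lower after 28 d than after 48 h of ligation in control liver. At 48 h the Cyp2c39 arrays of JNK1-/- liver lie above those of the other genotypes, a difference called against control alone.

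Among family 2 genes outside these clusters, Cyp2u1, a hydroxylase of long-chain fatty acids, read 8.99, 9.00 and 8.41 in 48 h sham liver and 8.20, 7.71 and 7.53 after ligation. At the later time the values were 9.16, 8.88 and 9.21 in sham liver and 6.79, 6.10 and 6.05 after ligation. The groups were apart at both times, far more so at 28 d. The fall was -0.99 ± 0.21 at 48 h (adjusted p = 0.00551) and -2.77 ± 0.21, or 6.80-fold, at 28 d (adjusted p = 4.52e-08). Cyp2f2, which activates naphthalene and in liver lies mainly near the portal vein, fell by 1.20 at 28 d (adjusted p = 0.000385). Cyp2e1, which oxidises ethanol and paracetamol near the central vein, fell by 0.54 (adjusted p = 0.000211). Cyp2r1, which hydroxylates vitamin D, and Cyp2g1, Cyp2s1, Cyp2t4 and Cyp2w1 were not called after ligation. Cyp2g1 was called at 28 d without ligated replicate 2 (1.42) or 3 (1.28), and Cyp2s1 without ligated replicate 2 (0.92).

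In the Cyp2j subfamily, a further group with enzymes that act on arachidonic acid, 0 of 6 members were called at 48 h and 3 fell at 28 d. Cyp2j5 read 11.90, 11.84 and 11.84 in 28 d sham liver and 9.30, 11.00 and 11.14 after ligation. All 3 ligated arrays were below sham, and replicate 1 was far below its partners. The fall of -1.38 ± 0.34 (adjusted p = 0.00586) became -0.79 without that array and had an adjusted p of 0.115 in a fit of only the 6 arrays compared. The others were falls of -0.55 in Cyp2j6 (adjusted p = 0.00624; 0.106 with only the arrays compared) and -0.26 in the dim Cyp2j11 (0.0481, lost in 6 of 12 alternatives, among them the omission of ligated replicate 1 or 2 or sham replicate 2 or 3).

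Family 1, the classical targets of the aryl hydrocarbon receptor, had no call at 48 h. Cyp1a2, which oxidises caffeine and aromatic amines, read 12.46, 12.15 and 12.22 in 28 d sham liver and 10.37, 11.57 and 11.23 after ligation. Every ligated array was lower than sham, and the fall of -1.22 ± 0.37 (adjusted p = 0.0207) was lost without ligated replicate 1 (-0.88) or sham replicate 1 (-1.13). At 48 h Cyp1a2 read 12.43, 12.29 and 12.27 against 11.26, 10.85 and 11.53, which was called only in a fit of the 6 arrays compared (-1.11, adjusted p = 0.00301). Cyp1b1, which hydroxylates oestrogens and is expressed mainly outside hepatocytes, read 4.37, 4.26 and 4.01 in 28 d sham liver and 5.63, 5.04 and 6.37 after ligation. It was higher on every ligated array, most so on replicate 3, with a rise of 1.47 ± 0.31 (adjusted p = 0.00186), and of 0.75 when its 2 probe sets were averaged (adjusted p = 0.00443). Replicate 3 also had the highest mean level of 12 stellate cell and myofibroblast markers, 9.51 against 7.26 and 7.88 on its partners and 6.88 to 7.10 in sham liver, and the part of those cells in the rise was not tested. Cyp1a1 was not called.

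Of the 8 members of Cyp2a and Cyp2b, which metabolise coumarin, nicotine and barbiturates, Cyp2a22 alone was called. It read 3.71, 4.39 and 3.36 in 28 d sham liver and 5.24, 6.03 and 5.25 after ligation, with no overlap. The rise was 1.69 ± 0.46 (adjusted p = 0.011; 0.057 without sham replicate 3). Cyp2a5, the coumarin hydroxylase, is singled out after its values were seen. It read 11.05, 10.70 and 10.87 in 48 h sham liver and 11.99, 12.27 and 12.17 after ligation, and 11.19, 11.06 and 11.32 against 12.71, 12.19 and 12.20 at 28 d. These groups did not overlap, yet differences of 1.27 ± 0.58 and 1.18 ± 0.58 were not called (adjusted p = 0.187 and 0.155). The SE came from 1 variance for all 24 arrays, including JNK1-/- 48 h replicate 1 at 8.42. In fits of only the 6 arrays compared, Cyp2a5 was called at both times (adjusted p = 0.000509 and 0.00948). Cyp2b10 is a classical target of the receptor CAR. Its differences of -1.23 at 48 h and -1.35 at 28 d were not called (adjusted p = 0.204 and 0.101). With only the 6 arrays compared, the 48 h difference was called (adjusted p = 0.0276). That difference depended on the sham arrays used, and was -0.30 against the 28 d ones (adjusted p = 0.824). Every 48 h sham array read higher for Cyp2b10 than every 28 d sham array.

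Cyp3a members, whose human relatives metabolise many drugs and bile acids, moved little. Cyp3a11, the main liver form, read 12.31 to 12.58 on the 6 sham arrays and 12.53 to 12.76 on the 6 ligated control arrays, and its difference was 0.23 ± 0.12 at 48 h and 0.07 ± 0.12 at 28 d, called at neither time. Cyp3a13 read 10.70, 10.69 and 10.60 in 28 d sham liver and 11.59, 11.27 and 10.95 after ligation. Each ligated array was above sham, and the rise of 0.61 ± 0.17 (adjusted p = 0.0127) was lost without ligated replicate 1 (0.45) and in a fit of only the 6 arrays compared (adjusted p = 0.0701). In Cyp4a and Cyp4b 0 of 3 members were called by limma, although Cyp4a31 at 48 h had a difference of -1.28 that was called in a fit of only the 6 arrays compared (adjusted p = 0.0154). Cyp4a14, a fatty acid hydroxylase induced through PPAR-alpha, read 12.59, 10.77 and 7.08 on the 3 control arrays ligated for 28 d, a wider spread than any other of its groups.

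Whether the response differed between times was tested by subtracting the 48 h ligation effect from the 28 d one. In this interaction 4 of 65 members were called, all lower, where 1.3% of all genes were called and 0.59% were lower, and at an unadjusted p under 0.05 there were 14 members, or 21.5%, and 15.1% of all genes. The values were -1.86 ± 0.45 for Cyp4f14 (adjusted p = 0.0434), -1.78 ± 0.30 for Cyp2u1 (0.00516), -1.60 ± 0.34 for Cyp2c67 (0.0267) and -1.18 ± 0.21 for Cyp2d40 (0.00861). The Cyp2u1 call alone held in all 19 alternatives. Cyp4f14 was lost in 13, among them the omission of any array but ligated 28 d replicates 2 and 3. Cyp2c67 was lost in 6, the omission of ligated 28 d replicate 1, ligated 48 h replicate 1, sham 28 d replicate 1 or 2, or sham 48 h replicate 2 or 3 (highest adjusted p 0.0764). Cyp2d40 was lost in 1, a fit of only the arrays compared (0.0542). Ligated arrays of the 2 times compared directly, which uses no sham array, differed in 10 members, 2 higher and 8 lower at 28 d, where 10.4% of all genes were called. Those 10 include Cyp4f14 (-1.69), Cyp2c67 (-1.62), Cyp2u1 (-1.50) and Cyp2d40 (-1.33). Between sham livers of the 2 times, 0 of 65 members were called by limma, with 3 at an unadjusted p under 0.05 (4.62%, against 7.58% of all genes), where 0.133% of all genes were called, 0.0903% higher and 0.0425% lower.

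The second question was whether loss of JNK1 altered P450 genes after ligation. Both mutants were compared with the same control arrays, so their differences are not independent. In JNK1-/- liver at 48 h 5 of 65 members were called, 2 higher and 3 lower, where 2.3% of all genes were called, 1.2% higher and 1.11% lower, and in 21.3% of genes the groups did not overlap. At 28 d 0 of 65 were called by limma, with 13 at an unadjusted p under 0.05 (20.0%, against 12.4% of all genes) and a smallest adjusted p of 0.0987, where 0.627% of all genes were called, 0.43% higher and 0.197% lower. In JNK1Δhepa liver 0 of 65 were called at 48 h, with 2 at an unadjusted p under 0.05 (3.08%, against 3.23% of all genes), and 0% of all genes were. At 28 d 0 were called, with 18 at an unadjusted p under 0.05 (27.7%, against 14.9% of all genes) and a smallest adjusted p of 0.0855, where 0.228% of all genes were called. Those were 23 higher and 20 lower genes; after quantile normalisation there were 0 and 0, and with arrays centred on their medians 83 and 25, with 0 members each time.

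Cyp2c55, a Cyp2c enzyme that CAR and PXR activators induce in liver, read 7.39, 6.59 and 7.29 in control liver at 48 h, 3.60, 4.78 and 5.05 in JNK1-/- liver and 6.16, 6.60 and 8.21 in JNK1Δhepa liver. Every JNK1-/- array was below the arrays of both other genotypes, by -2.61 ± 0.67 or 6.12-fold against control (adjusted p = 0.0428). This call was lost in 6 of 13 alternatives, 5 of them the omission of any array but JNK1-/- replicate 3, with a highest adjusted p of 0.175 without JNK1-/- replicate 1 (-2.17). Cyp4f14 read 10.76, 10.10 and 10.30 in control liver, 8.78, 8.79 and 9.52 in JNK1-/- liver and 10.43, 10.06 and 10.89 in JNK1Δhepa liver. It was lower on all 3 JNK1-/- arrays, by -1.36 ± 0.31 against control (adjusted p = 0.0266) and -1.43 against JNK1Δhepa (0.0202). These calls were lost in 6 and 5 of 13 alternatives, the first without any array but JNK1-/- replicate 3 and the second without JNK1-/- replicate 1 or 2 or JNK1Δhepa replicate 1 or 3, with highest adjusted p of 0.139 without control replicate 1 and 0.116 without JNK1Δhepa replicate 3.

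Cyp2c29 read 12.05, 11.79 and 12.39 in control liver at 48 h and 11.17, 11.33 and 11.63 in JNK1-/- liver, lower by -0.70 ± 0.17 with no overlap (adjusted p = 0.0326, and at most 0.15 over 13 alternatives, with the call lost in 5, among them the omission of control replicate 1 or 3 or JNK1-/- replicate 1 or 2). Cyp2c39 went the other way, with 7.19, 7.97 and 8.00 in control and 8.59, 9.17 and 8.90 in JNK1-/- liver. It was higher on each JNK1-/- array, by 1.16 ± 0.25 (adjusted p = 0.0172), and the call was lost without control replicate 1 (0.90), without JNK1-/- replicate 2 (1.02) and in a fit of only the 6 arrays compared (adjusted p = 0.0968). Cyp3a13 read 10.81, 10.75 and 11.10 in control, 12.07, 11.58 and 11.69 in JNK1-/- and 11.41, 11.22 and 10.68 in JNK1Δhepa liver. Its JNK1-/- arrays were above both other genotypes, by 0.89 ± 0.17 against control (adjusted p = 0.00736) and 0.68 against JNK1Δhepa (0.0388). The first call was lost with only the arrays compared (0.0655), the second in 5 of 13 alternatives, among them the omission of JNK1-/- replicate 1 or 3 or JNK1Δhepa replicate 2 or 3. In the comparison of JNK1-/- with JNK1Δhepa at 48 h 3 of 65 members were called, where 2.44% of all genes were, 1.2% higher and 1.24% lower, and in 22.2% of genes the groups did not overlap. The third was Cyp2j9, at 8.81, 8.35 and 8.42 against 7.70, 7.87 and 7.30, higher by 0.90 ± 0.23 with no overlap (adjusted p = 0.0405). Its call was lost in 7 of 13 alternatives, the omission of any of the 6 arrays among them. Cyp2c39 and Cyp2c55, like the other Cyp2c members, were not called between the 2 mutants at 48 h.

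At 28 d JNK1-/- and JNK1Δhepa liver differed in 2 of 65 members, both lower in JNK1-/- liver, where 0.962% of all genes were called, 0.569% higher and 0.393% lower, and in 26.4% of genes the groups did not overlap. Cyp2d9 read 9.41, 9.92 and 9.56 in JNK1-/- and 10.72, 10.66 and 10.75 in JNK1Δhepa liver, beside 10.68, 9.97 and 9.83 in control liver and 10.98 to 11.12 in sham liver. The JNK1Δhepa arrays agreed closely and lay above all JNK1-/- arrays. The difference was -1.08 ± 0.19 (adjusted p = 0.00737), and it was called in every alternative run. Cyp2g1, known mainly from olfactory mucosa, read 4.31, 4.05 and 3.72 in JNK1-/- and 5.85, 6.14 and 5.03 in JNK1Δhepa liver. In control liver it read 6.03, 3.66 and 3.95, so replicate 1 alone resembled JNK1Δhepa. The difference between the mutants was -1.65 ± 0.39 (adjusted p = 0.0484) and was lost in 7 of 13 alternatives, among them the omission of any array but JNK1Δhepa replicate 3.

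**Figure D5:**
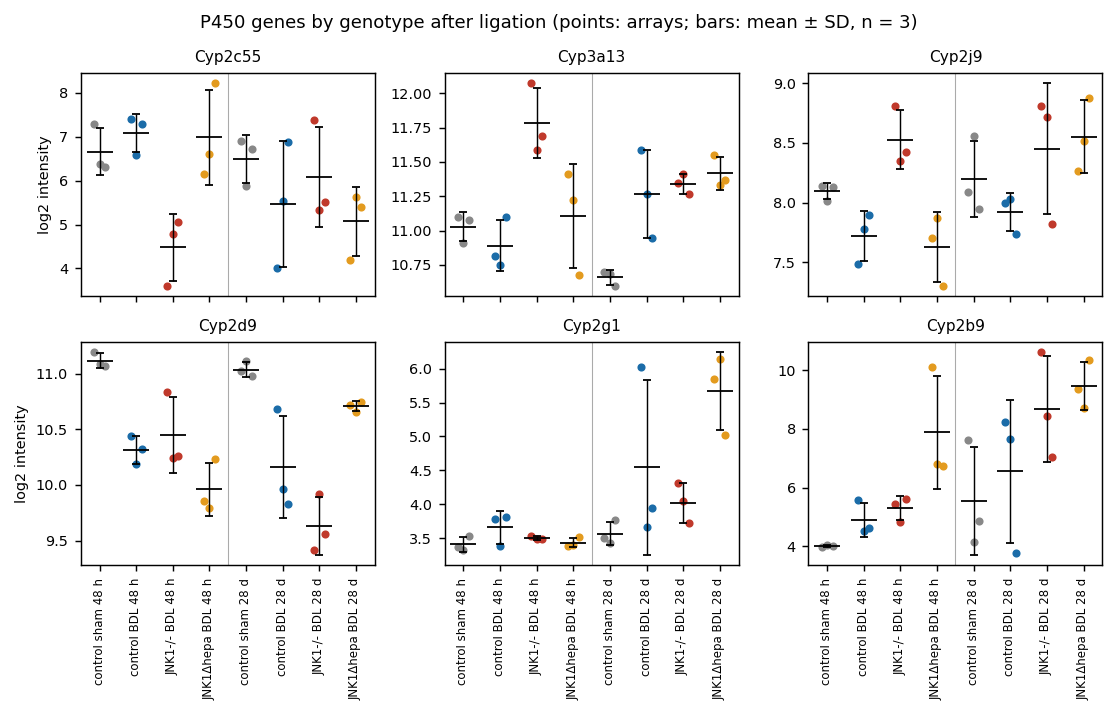
Log2 intensity on each array (points; horizontal bars with whiskers are mean ± SD, n = 3) of 6 members in the 8 groups. Cyp2c55 is low and Cyp3a13 high in JNK1-/- liver at 48 h, and Cyp2b9 spreads over several log2 units within groups. At 28 d Cyp2d9 in JNK1Δhepa liver lies above JNK1-/- liver and below sham liver.

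Cyp2b9, which female mouse liver normally expresses more than male liver, had the widest span of group means of any member and is singled out after its values were seen. Control liver read 3.99, 4.07 and 4.02 in 48 h sham, 5.58, 4.51 and 4.63 after 48 h of ligation, 7.61, 4.14 and 4.88 in 28 d sham and 8.23, 7.67 and 3.77 after 28 d of ligation. JNK1-/- liver read 5.45, 4.83 and 5.61 at 48 h and 10.61, 8.42 and 7.03 at 28 d. JNK1Δhepa liver read 10.11, 6.81 and 6.74 at 48 h and 9.34, 8.71 and 10.34 at 28 d. JNK1Δhepa arrays were above all control arrays at both times, by 2.98 ± 1.09 at 48 h and 2.91 ± 1.09 at 28 d, but neither was called (adjusted p = 1.0 and 0.217). Cyp2b9 was called at 28 d once control replicate 1 was left out (3.74, adjusted p = 0.0464).

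Without that array 10 of 65 members were called between JNK1Δhepa and control at 28 d, where 10.5% of all genes were called, 1985 in number. Besides Cyp2b9 they were Cyp2c37, Cyp2c39, Cyp2d9, Cyp2g1, Cyp2u1, Cyp4a14 and Cyp4f13, all higher, and Cyp2j5 and Cyp4f18, both lower. Without control replicate 2, 1 member was called, Cyp2f2 (1.03), where 0.685% of all genes were. For JNK1-/- at 28 d, Cyp2d40 (0.76) and Cyp2s1 (-1.33) were called without control replicate 2, where 2.19% of all genes were. None of these was called with all arrays.

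Lists taken from textbook knowledge describe the members by regulation and place. Of 8 P450 genes expressed around the central vein, 1 fell at 48 h (Cyp2c37) and 5 at 28 d (Cyp1a2, Cyp2e1, Cyp2c29, Cyp2c50 and Cyp2c54), with a 28 d median of -0.75. Of all genes, 3.83% fell at 48 h and 11.5% at 28 d. Against the 28 d sham arrays 0 of the 8 fell at 48 h. At each time 6 of the 8 had negative and 2 positive differences. The positive ones were Cyp3a11 and Cyp2a5 (1.27 and 1.18), neither called. Cyp2f2, the 1 P450 gene listed for the portal area, fell by 1.20 at 28 d. Of 11 other markers of central vein hepatocytes, 9 fell at 28 d, such as Glul (-1.10), Lgr5 (-1.85) and Rhbg (-2.14), and Ahr rose by 0.73. The mean of that list was 10.18 to 10.43 in 28 d sham and 8.52 to 9.69 in ligated liver. Of 14 general hepatocyte markers 5 fell at 28 d, with a median over the list of -0.07, and of 8 markers of portal hepatocytes 2 fell and 1 rose. At 48 h 3 of the 11 other central vein markers fell (median -0.41), with a list mean of 10.29 to 10.37 in sham and 9.41 to 9.91 in ligated liver. General hepatocyte markers held 1 fall at 48 h, and portal markers 1 fall and 1 rise. How far a change in the number of central vein hepatocytes enters the P450 falls was not tested. At 48 h 5 of 11 markers of bile duct cells rose, 6 of 14 of macrophages (9 against the 28 d sham arrays) and 2 of 12 of stellate cells and myofibroblasts, and 0 of 10 endothelial markers were called. At 28 d markers of other cells rose as well, 4 of 11 for bile duct cells, 9 of 14 for macrophages and 5 of 12 for stellate cells and myofibroblasts. Of 10 endothelial markers 3 fell at 28 d. Among all genes, 5.61% rose at 48 h and 11.7% at 28 d. The part of these cells in the P450 differences was not tested.

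Both male-biased members, Cyp2d9 and Cyp2u1, fell at both times. Of 8 female-biased members Cyp2c38 and Cyp2c39 rose at both times. None was called as lower, though 3 of the 8 had negative differences at each time. The list median was 0.42 at 48 h and 0.62 at 28 d. Against the 28 d sham arrays the 48 h median was -0.0042, with the same 2 members called. Cyp4a12a and Cyp4a12b, male-biased fatty acid hydroxylases that the symbol rule leaves out, had 28 d differences of -3.85 and -2.53 (adjusted p = 0.00144 and 0.0447), both called. Cyp4a12a read 12.55, 12.49 and 12.21 in 28 d sham liver and 10.30, 9.36 and 6.04 after ligation, with replicate 3 lowest. Of 12 members listed as targets of CAR and PXR, 3 fell and Cyp3a13 rose at 28 d, where 11.5% of all genes were lower and 11.7% higher. Of the PPAR-alpha targets Cyp4a14 and Cyp4a31, neither was called.

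Regulators and partners of P450 enzymes were counted from fixed lists too. Of 18 receptors and regulators 5 fell and 1 rose at 48 h, and 6 fell and 2 rose at 28 d. Among all genes, 3.83% fell and 5.61% rose at 48 h, and 11.5% fell and 11.7% rose at 28 d. Against the 28 d sham arrays 8 fell and 1 rose at 48 h, with Cebpa, Foxa2 and Onecut1 added to the falls. In that comparison 5.13% of all genes fell and 6.8% rose. Ppara, the receptor that induces Cyp4a genes, fell by 1.14 at 48 h (adjusted p = 8.77e-06) and differed by -0.74 at 28 d (adjusted p = 9.97e-05). Ghr and Stat5b, through which growth hormone acts, fell at both times, with differences of -0.56 and -0.65 at 48 h and -1.30 and -0.51 at 28 d. Bcl6, a repressor of female-biased genes in male liver, fell by 2.58 and was called at 48 h alone; against the 28 d sham arrays the 48 h difference was -1.57 (adjusted p = 0.00608). Cux2, which is female-biased in liver, rose by 2.25 at 28 d. At 28 d the liver factors Cebpa, Foxa2 and Onecut1 fell, with differences of -1.07, -0.97 and -1.65. Their 48 h differences were -0.29, 0.14 and 0.45 against the 48 h sham arrays and -0.74, -0.43 and -1.45 against the 28 d ones. Onecut1 was 1.89 higher in 28 d than in 48 h sham liver, the largest difference of the list between sham groups. Its falls therefore depended on the sham arrays used. Nfe2l2 rose by 0.88 and Nr1h4 fell by 0.86 at 48 h. Cebpa (0.60) and Ghr (0.61) were higher in JNK1-/- than in control liver at 28 d (adjusted p = 0.039 and 0.0417). Of 12 genes for electron transfer and haem, 7 fell at 28 d, from -0.49 for Fech to -1.12 for Cyb5b. Hmox1, which breaks haem down, rose by 1.61 at 48 h and 1.99 at 28 d. Alas1, of the same list, differed by 0.66 at 48 h and by -0.20 against the 28 d sham arrays, called in neither. Ephx2, which hydrolyses the epoxides that Cyp2c and Cyp2j enzymes make, fell by 0.70 at 48 h and differed by -0.67 at 28 d, both called, and Nqo1, a quinone reductase, rose by 1.86 and 2.81.

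Promoter windows, 250 bases before to 50 after the start, were found for 54 of 65 members. TATAAA, on either strand, was in 23 of the 54 and in 15.7% of 27025 genes with a window. CAAAGTCCA was in 6 of the 54, namely Cyp2c65, Cyp2c67, Cyp2c68, Cyp2c70, Cyp3a11 and Cyp3a16, and in 0.555% of all genes. AGGTCA was in 16 and in 18.1% of all genes, and the STAT5 motif TTCNNNGAA in 4 and in 9.55%. TTGCNNAA, bound by C/EBP factors, was in 11 and in 12.2%, and TNGCGTG, bound by AHR with ARNT, in 1 and in 5.84%. Many members are close copies of each other and share sequence, the motifs were chosen with the results known, and a match is not a bound site. Of the 20 members with a window that fell at 28 d, 11 had TATAAA and 2 had CAAAGTCCA, and of 7 that rose, 3 and 0 did.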

How the data were processed

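Liver RNA of 24 mice was measured on 24 arrays, 1 per sample. The authors deposited log2 intensities per probe set made with RMA, per the submitters' processing notes; which RMA version and settings is not given in the sources used here. RMA subtracts background, equalises the intensity distribution over arrays and sums probes into probe sets, which can compress differences of dim genes. Of 35556 probe sets, 21218 had a single gene symbol in the platform annotation, 1881 had several and 12457 had none listed; the brightest of each of 18820 symbols was used. All 65 members matched RefSeq by gene number.

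Differences were fitted with limma 3.58.1 in R 4.3.3 (data.table package 1.17.8), with 8 group means, 16 residual degrees of freedom and Benjamini-Hochberg adjustment over 18820 symbols. The median SE of a difference was 0.129, and the number of arrays limits this precision. The scripts were tested on simulated data. Alternatives were quantile normalisation, centring on array medians, the mean of probe sets, omission of symbols below the 25 percentile, trended and robust variances, a replicate block, only the arrays compared, the 28 d sham arrays in place of the 48 h ones for the 48 h member count, and each array left out. A block in 6 arrays, the 28 d sham arrays for lists and other genes, and the direct comparison of ligated arrays were chosen after seeing the data.

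Values on every array are given for members called with groups that do not overlap, the 8 with the largest change per direction in each ligation comparison and 5 in others. Members, lists and motifs were chosen with earlier results of these data known. Equal replicate numbers were checked by the correlation of deviations from group means. In JNK1Δhepa against control liver at 28 d these were 0.50, 0.24 and 0.16, all over 0.1, and that comparison was also fitted as paired; in no other comparison were all pairs over 0.1, and the labels give no pairing. No 2 arrays were identical (highest correlation 0.9932). Promoter windows are RefSeq's on GRCm38.p6.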

Additional observations from a re-analysis of the deposited data

Results flagged for a closer look

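Ligation effects differed between the 2 times, by the interaction test in limma, in 4 P450 genes. The 28 d effect minus the 48 h effect was -1.86 for Cyp4f14, -1.78 for Cyp2u1, -1.60 for Cyp2c67 and -1.18 for Cyp2d40, so all 4 were lower relative to sham after 28 d than after 48 h. Of 19 alternatives, the call was lost in 13 for Cyp4f14, 6 for Cyp2c67, 1 for Cyp2d40 and 0 for Cyp2u1. The test needs the 48 h sham arrays, whose Mapk8 level lay below the other control groups. Time after surgery and age cannot be told apart in it.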

How the results depend on the processing

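No call reversed its direction in any alternative. Of 410 checks of a member's call under another setting, 378 kept it and 32 lost it. Of 366 checks with 1 array left out, 254 kept it and 112 lost it; an omitted array leaves fewer samples to estimate a difference. When only the compared arrays were fitted, 23 members were called for ligation at 48 h (13.7% of all genes) and 2 for the interaction (0.67%). That fit gave 1 for JNK1-/- against control at 48 h (0.643%). It gave 0 and 1 for JNK1-/- against JNK1Δhepa at 48 h and 28 d (0.813% and 0.446%). In that last pair, leaving out dim genes gave 5 at 48 h (3.62%), and trended and robust variances gave 1 at 28 d (0.855%). The cause was not tested. Omitting 1 array also lowered the share of all genes called for ligation at 48 h, from 9.43% to between 5.87% and 7.68%. With 1 array left out, counts ran from 5 to 9 for ligation at 48 h, from 2 to 6 for the interaction, from 1 to 5 and from 0 to 2 for JNK1-/- against control at 48 h and 28 d, from 0 to 10 for JNK1Δhepa against control at 28 d, and from 0 to 2 and from 1 to 2 for JNK1-/- against JNK1Δhepa at 48 h and 28 d. Centring arrays on their medians moved the 28 d median of all genes to -0.12 and the calls among all genes from 2199 higher and 2161 lower to 1660 and 3693, and among members to 7 higher and 28 lower. At 28 d a fit of only the compared arrays called 1765 genes in all, against 4360. The replicate block gave 13 members at 48 h, 32 at 28 d, 4 in the interaction, and 0 for the paired fit of JNK1Δhepa against control at 28 d, as without it. Intensities of the 22 members with a mean below 5 lie near the low end of the scale, where changes are hard to resolve.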

Other observations

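Probe sets shared by several P450 symbols were left out of the members, and the levels of some are given as values. The probe set of Cyp2a5 and Cyp2a4 had a mean log2 intensity of 11.12 ± 0.30 (SD, n = 3) in 48 h sham liver, 12.38 ± 0.14 after ligation, 11.24 ± 0.24 in 28 d sham liver and 12.72 ± 0.31 after ligation. JNK1-/- 48 h replicate 1 read 8.02 there, and its partners read 12.14 and 12.19. The probe set of Cyp4a31 and Cyp4a10 read 11.34, 10.40 and 8.27 in control liver after 28 d of ligation and 11.27, 10.97 and 10.84 in sham liver. At 48 h it read 10.16, 9.68 and 10.43 after ligation and 11.76, 11.06 and 11.07 in sham liver. A probe set shared by Cyp4a32, Cyp4a31 and Cyp4a10 read 10.27, 9.92 and 10.68 against 11.83, 11.26 and 11.46 at 48 h. Neither set overlapped between sham and ligated liver at 48 h. The probe set of Cyp4v3 and its neighbour Klkb1 had a mean of 11.21 ± 0.10 in 28 d sham liver and 10.25 ± 0.11 after ligation.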
